A study of Bos taurus with 72 samples.

Results

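The response of bovine mammary epithelial cells (BMECs) to valine as the only essential amino acid (EAA) in the medium was described from 12 of the 72 libraries of the series. These are the 6 libraries of the treatment with L-valine (Val_1 to Val_6) and the 6 of the negative control (NEG_1 to NEG_6), taken by their labels. Primary wild-type BMECs isolated from dairy cow mammary gland and passaged 6 times were starved of serum overnight and then kept for 6 h in a treatment medium. NEG was DMEM-F12 without any EAA, and Val was that medium with valine at 0.45 mmol/L. The complete medium (POS) and 9 other single EAA added to NEG were used where Val was compared with them. These were arginine (Arg), histidine (His), isoleucine (Ile), leucine (Leu), lysine (Lys), methionine (Met), phenylalanine (Phe), threonine (Thr) and tryptophan (Trp), with 6 libraries in each. The sources describe 6 biological replicates per treatment, but not which cow or culture each came from, so p-values measure the spread between these libraries. The label of mammary epithelial cells could not be checked against marker genes, since the files pair no gene identifier with a name.

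Valine is 1 of the branched-chain amino acids, with leucine and isoleucine. Branched-chain amino acids are first transaminated and then oxidised in mitochondria, the mammary gland takes them up for milk protein as well as for other uses, and the carbon of valine enters the citric acid cycle as succinyl-CoA. Cells that lack an EAA sense uncharged tRNA through the kinase GCN2, while leucine is the best known amino acid signal to the growth kinase mTORC1. Comparing Val with NEG asks what adding valine alone changes in cells that still lack the other EAA.

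The deposited unit is FPKM, the reads counted on a gene per length of the gene and per depth of the library. Levels were compared as log2(FPKM + 1). Of the 29550 genes in the table, 12121 had an average of 1 FPKM or more over the 72 libraries, and these were tested. Differences on that scale understate the change of genes with low FPKM. Whole reads could be recovered from the FPKM. The 6 Val libraries held 14192523 to 18379953 reads on genes (median 14644577) and the 6 NEG libraries 15907885 to 17910737 (median 16534948). Val_3 was the deepest of the 12, and the other 5 Val libraries, at 15504263 reads or fewer, all lay below the lowest NEG library (exact permutation test, two-sided p = 0.089 with Val_3 and 0.0043 without it). The 100 genes with the most reads took 24.8% to 25.3% of the reads in Val and 25.5% to 28.3% in NEG, with no overlap (exact permutation test, two-sided p = 0.0022, the smallest that 924 splits allow). Genes with a read numbered 16565 to 18393 in Val and 16596 to 17707 in NEG (exact permutation p = 0.68), and 16527 to 18011 against 16492 to 17403 after thinning to 14192523 reads (exact permutation p = 0.88).

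Val_3 stood apart from the other 5 Val libraries over the whole profile. The distance between 2 libraries was taken as the root mean square (RMS) difference of log2(FPKM + 1) over the 12121 genes. The 10 pairs among the other 5 Val libraries differed by 0.29 to 0.40, and the 5 pairs with Val_3 by 0.73 to 0.83. Val_3 lay nearest to the mean of Phe (0.30), Thr (0.30) and NEG (0.33), and far from the mean of the other Val libraries (0.77) and of Leu (0.79). The single library nearest to it was Met_1, at 0.31, followed by Phe_3 at 0.32. The other 5 Val libraries had the opposite order. They were 0.73 to 0.84 from NEG, 0.35 to 0.43 from Leu and 0.35 to 0.50 from His, and 0.23 to 0.30 from the mean of the remaining 4 of their own group. In the control group NEG_2 lay 0.62 from the mean of the other NEG libraries, against 0.21 to 0.25 for the rest. Neither library was dropped from the main values. The profile of Val_3 goes against its label, and whether the label is right was not tested, so each value over all 6 Val libraries holds only if it is. The main counts are given with and without Val_3.

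**Figure D1:**
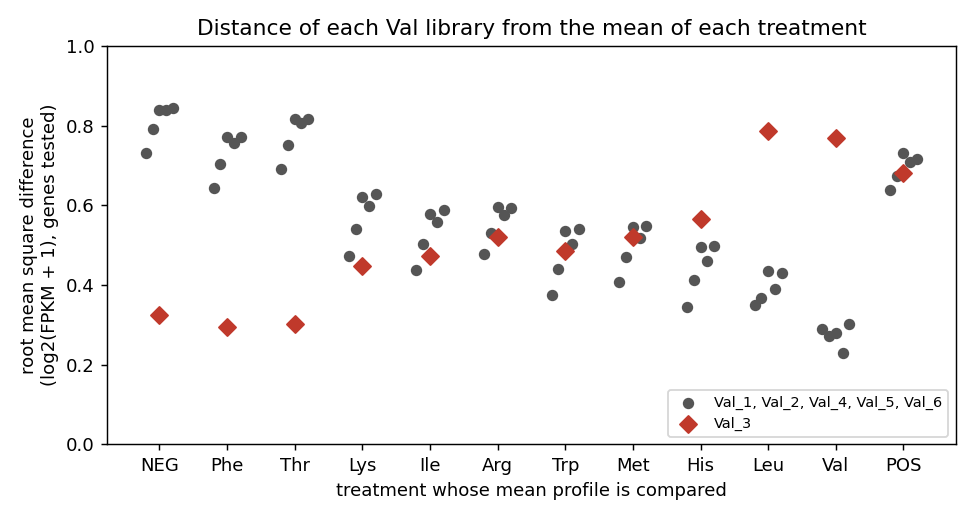
RMS difference in log2(FPKM + 1) over 12121 genes (y axis) between each Val library and the mean of each treatment (x axis), with a library left out of the mean of its own group. Val_3 (red diamond) is at 0.30 from Phe and 0.77 from the other Val libraries, whereas the other 5 Val libraries (grey circles) are 0.73 to 0.84 from NEG and no more than 0.30 from their own group.

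The position of each Val library was also measured on genes called without it. A differentially expressed gene (DEG) passed an unadjusted p of 0.05 in limma and changed by more than 1 on the log2 scale. Over the 2186 DEG called from the other 5 Val libraries and NEG, each gene was placed on a scale where 0 is the mean of NEG and 1 the mean of the other Val libraries. Val_3 had a median position of 0.12 (quartiles -0.03 and 0.26), and it lay nearer to Val than to NEG for 143 genes, or 6.54%. For 853 genes (39.0%) it lay beyond the NEG range on the side of Val, and for 1172 genes (53.6%) it lay within the range of the 6 NEG libraries. The 5 other libraries, each held out in the same way with Val_3 left out too, had medians of 0.85 (Val_1), 0.95 (Val_2), 1.03 (Val_4), 1.05 (Val_5) and 1.02 (Val_6). They were nearer to Val for 94.8% to 98.4% of the genes. Val_3 was thus close to NEG over these genes. Its median position was 0.18 for the genes that were higher with valine and 0.10 for those that were lower.

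**Figure D2:**
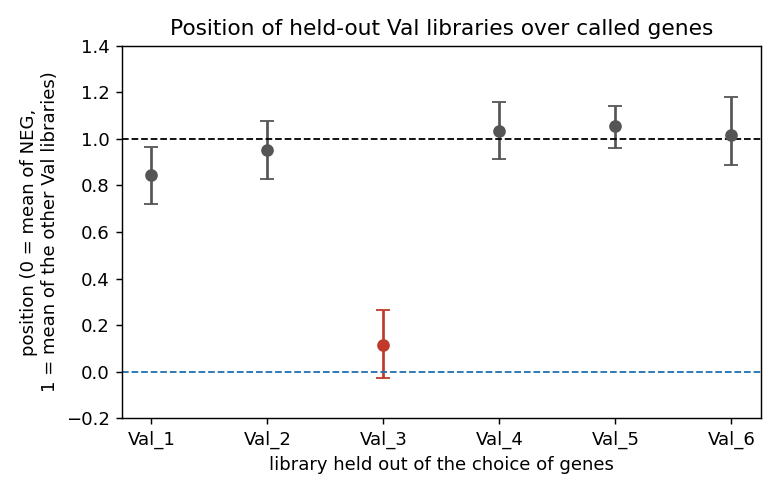
Median position (points) with the quartiles over genes (bars) of each Val library on DEG called without it, where 0 is the mean of NEG (blue dashed line) and 1 the mean of the other Val libraries (black dashed line). Val_3 (red) is at 0.12 and the other 5 are between 0.85 and 1.05.

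Valine changed the level of a large share of the expressed genes. In FPKM as deposited, falls were more frequent than rises among the larger changes. With all 6 Val libraries, 1425 genes were DEG against NEG, 11.8% of those tested, and 267 were higher and 1158 lower with valine. By a Benjamini-Hochberg adjusted p under 0.05 in limma, 7445 genes (61.4%) differed, 3062 higher and 4383 lower. Without Val_3 the DEG rose to 2186 (18.0%), 494 higher and 1692 lower, and the genes by adjusted p to 8662 (71.5%), 3633 higher and 5029 lower. Without both Val_3 and NEG_2 there were 2030 DEG, 433 higher and 1597 lower. Most changes were moderate. Among genes called by adjusted p the median log2 fold change was 0.58 for those higher and -0.73 for those lower, and 13 DEG rose and 53 fell by more than 2 on the log2 scale, or 26 and 134 without Val_3.

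The fits with and without Val_3 share 11 of their 12 libraries, so their calls are given side by side only. Of the DEG, 264 higher and 1158 lower genes were called in both fits, 764 were called only without Val_3, and 3 only with it. By adjusted p, 3046 genes were higher and 4373 lower in both fits, and 0 were called in opposite directions. The FPKM of the 6 Val libraries lay entirely above those of NEG for 720 genes and entirely below for 1435, together 17.8% of the genes tested, and those of the 5 Val libraries without Val_3 did so for 2790 and 4009, or 56.1%.

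The balance of rises and falls depended on how libraries were scaled to each other. As deposited, 81.3% of the DEG were lower with valine. With each library scaled to an equal sum of FPKM, 1101 DEG were higher and 415 lower, so 27.4% were lower, and with scaling by the total reads on genes 457 were higher and 786 lower (63.2% lower). The median log2 fold change of all genes tested was -0.09 as deposited, 0.22 with equal sums and 0.04 with total reads. The direction of a gene that changed by less than the distance between these medians is relative to the scaling. The shift is not the same for all genes, and ENSBTAG00000054661 went from -4.87 as deposited to -4.49 with equal sums. In these bulk libraries, fewer cells of a type and less RNA per cell cannot be told apart.

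The 4 genes named for the largest changes were very short. Of all DEG, 119 of 267 higher and 18 of 1158 lower were under 200 bp. Named here are, in each direction, the 2 genes with the largest change among 2578 higher and 3839 lower genes that had an adjusted p under 0.05 with and without Val_3 and whose 5 other Val libraries lay all above or all below NEG. No gene name or function can be given for these identifiers.

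ENSBTAG00000042696, with a length of 69 bp recovered from the FPKM, showed the largest rise by this rule. Its FPKM was 21.2 to 55.1 in the 5 Val libraries (median 36.5) and 13.5 in Val_3, and 1.07 to 6.41 in NEG (median 3.10). All 6 Val libraries were above all NEG libraries, Val_3 the least. These levels rest on 17 to 57 reads per Val library and 1 to 7 reads per NEG library. The log2 fold change was 2.93 with a standard error (SE) of 0.37 (limma, adjusted p = 0.000441), and 3.14 without Val_3 (adjusted p = 6.24e-06).

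ENSBTAG00000042180 (77 bp) had an FPKM of 10.7 to 20.1 in the 5 Val libraries (median 15.6) and of 5.69 in Val_3. In NEG it ranged from 0 to 6.73 (median 1.61). The groups overlapped only because Val_3 lay below NEG_2, the highest control. The Val libraries held 8 to 26 reads and the NEG libraries 0 to 7. The log2 fold change was 2.53 ± 0.41 (SE; limma, adjusted p = 0.000579), and 2.76 without Val_3. Its rise passed that of ENSBTAG00000042696 without NEG_2 (2.86 against 2.75) and without both Val_3 and NEG_2 (3.08 against 2.96). The same held with sample weights (3.18 against 2.96) and a pseudocount of 0.1 (3.48 against 3.33).

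ENSBTAG00000054661 (55 bp) showed the largest fall by this rule and was also very abundant per length in NEG. It stood at 28922 to 42766 FPKM in NEG (median 33392) and at 143 to 2312 FPKM in 5 Val libraries (median 501), but at 23006 FPKM in Val_3. Every Val library was below every NEG library, and Val_3 was the one nearest to them. The gene had 21479 to 38284 reads in NEG, 132 to 1918 in the 5 Val libraries and 23096 in Val_3, so counting error is small here. The log2 fold change was -4.87 ± 0.90 (SE; limma, adjusted p = 0.000871), and -5.73 ± 0.56 without Val_3 (adjusted p = 2.06e-06).

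ENSBTAG00000054257 has the same recovered length of 55 bp and was also lower in the 5 Val libraries than in NEG and Val_3. Its FPKM was 28.3 to 70.9 in NEG (median 45.4), 29.9 in Val_3, 2.31 in Val_1, 1.21 in Val_2, and 0 in Val_4, Val_5 and Val_6. Only Val_3 reached the NEG range. The log2 fold change was -4.14 ± 0.70 (SE; limma, adjusted p = 0.000652), and -4.87 without Val_3. With a pseudocount of 0.1 its fall was the larger, at -5.98 against -4.87 for ENSBTAG00000054661. In NEG and Val_3 this gene had 0.922 to 1.98 reads per 1000 reads of ENSBTAG00000054661. Whether the pair are near-identical copies that share reads was not tested, and the fall of ENSBTAG00000054257 is uncertain for that reason.

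**Figure D3:**
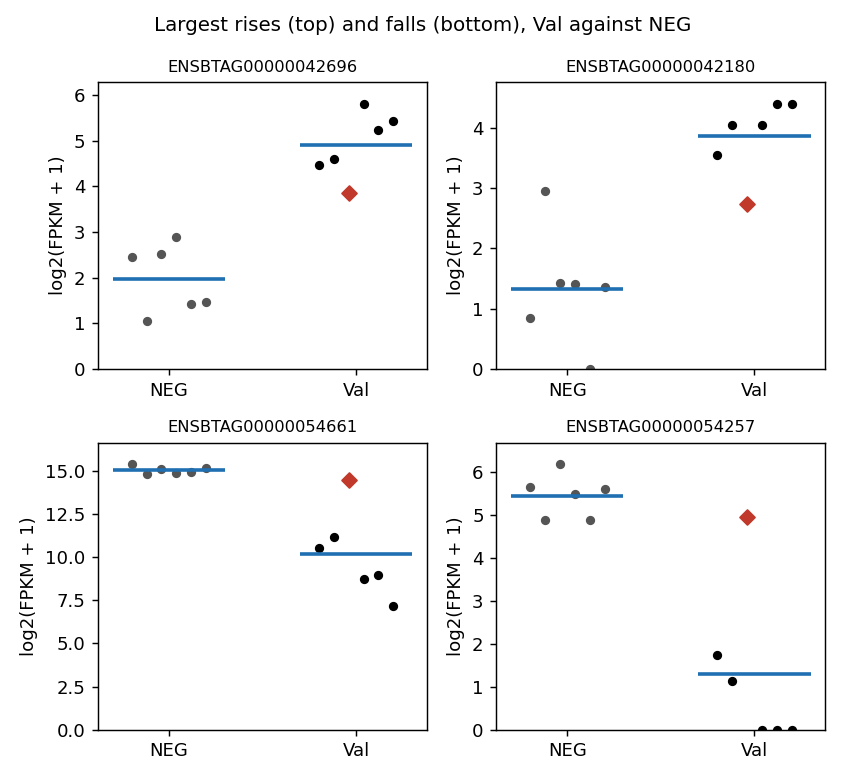
Level in log2(FPKM + 1) (y axis) of the 2 genes with the largest rises and the 2 with the largest falls in each NEG (grey) and Val (black, Val_3 as a red diamond) library, with group means as blue lines. Val_3 lies between the groups or at the NEG level in every panel, at 23006 FPKM for ENSBTAG00000054661.

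For none of these 4 genes did Val differ from every other single EAA at an adjusted p under 0.05 in limma. For ENSBTAG00000042696 the nearest single EAA was Met, where the gene reached 8.35 to 32.8 FPKM, and Val minus Met was 0.59 ± 0.57 (SE; limma, adjusted p = 0.53). For ENSBTAG00000042180 it was again Met, with a difference of 0.72 ± 0.53 (limma, adjusted p = 0.40). For ENSBTAG00000054661 it was Leu, with 438 FPKM in Leu_1 and 2903 to 3801 in the other Leu libraries. The 5 Val libraries other than Val_3, at 143 to 2312 FPKM, all lay below the Leu libraries other than Leu_1. The difference was -1.01 ± 0.69 (limma, adjusted p = 0.41), or -1.88 ± 0.63 without Val_3 (limma, adjusted p = 0.056). For ENSBTAG00000054257 it was Leu as well, with a difference of -0.16 ± 0.73 (limma, adjusted p = 0.93).

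DEG were also counted by gene length, with all 6 Val libraries first. Of the 405 tested genes under 200 bp, 119 (29.4%) were DEG higher with valine and 18 (4.44%) lower, with a median log2 fold change of 0.56. Of the 1389 genes from 200 bp to under 1000 bp, 34 were higher and 299 lower (median -0.38). The 6183 genes from 1000 bp to under 3000 bp had 46 higher and 720 lower (median -0.21), and the 4144 genes of 3000 bp or more had 68 higher and 121 lower (median 0.12). By adjusted p, rises outnumbered falls among these longest genes, 1548 against 1081. Over all genes tested the median was -0.09, with 267 higher and 1158 lower. Without Val_3, 4.08% of all genes tested were DEG higher and 13.96% lower. From the shortest class these shares were then 32.3% and 6.42%, 3.82% and 27.3%, 1.73% and 16.8%, and 4.90% and 5.98%. The median length of the higher DEG was 262 bp against 1507 bp for the lower with all 6 Val libraries, but 2245 bp against 1660 bp without Val_3, so that contrast turned. With equal sums of FPKM the balance of DEG turned to 328 higher and 229 lower from 1000 bp to under 3000 bp and to 534 and 15 at 3000 bp or more, and with total reads that of the longest class was 182 and 48. The medians kept their signs with equal sums of FPKM and with total reads for the shortest (0.78 and 0.64), the next (-0.07 and -0.25) and the longest class (0.43 and 0.24), while that of 1000 bp to under 3000 bp turned to 0.11 with equal sums and was -0.07 with total reads. Removing the trend on gene length from each library leaves class medians of -0.04 to 0.05 by its construction, and 338 DEG higher and 655 lower.

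Short genes that rose were weakly covered. The 119 DEG under 200 bp that were higher had a median of 6.92 reads per library, and 94.1% of them had under 50, whereas the 148 higher DEG of 200 bp or more had a median of 614 reads and the 1158 lower DEG one of 513. All genes under 200 bp together took 0.0685% to 0.181% of the reads in Val and 0.182% to 0.265% in NEG (exact permutation test, two-sided p = 0.0022). The direction turned without ENSBTAG00000054661. Genes under 200 bp other than this one took 0.0550% to 0.0727% of the reads in Val and 0.0403% to 0.0471% in NEG, with no overlap (exact permutation test, two-sided p = 0.0022). The share in Val_3, 0.0550%, was the lowest of Val. The part of fragment size or RNA quality in these length classes was not tested.

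Falls were also counted by level. Of the 738 genes with a mean of 100 FPKM or more, 4 were DEG higher and 136 lower with valine, or 18.4% lower against 9.55% over all genes tested, with a median log2 fold change of -0.31. Of the 3378 genes with a mean from 1 to under 5 FPKM, 112 were higher and 150 lower (4.44% lower, median -0.04). The gap between these classes was smaller with voom of limma on the recovered reads, where 18.6% of the abundant and 13.4% of the low class were DEG lower, against 13.5% of all genes tested. Without Val_3, where 4.08% of all genes tested were DEG higher and 13.96% lower, the abundant class had 9 higher and 168 lower (22.8% lower) and the low class 148 and 252 (7.46% lower). With equal sums of FPKM the most abundant class had 33 DEG higher and 53 lower, but 264 genes higher and 239 lower by adjusted p. Its median was then 0.06, which was 0.16 below the median of all genes. The sign of that median thus turned with the scaling, and falls still outnumbered rises among DEG only. No gene was switched wholly on or off at a limit of 10 reads, and genes with fewer were not counted. None with 10 reads or more in every NEG library had 0 reads in the 5 Val libraries other than Val_3, and none did the reverse.

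Val was set against each other single EAA in 1 fit of all 12 treatments, with calls by adjusted p under 0.05 in limma. The EAA were given at different concentrations, from 0.04 mmol/L for Trp to 0.70 mmol/L for Arg, so these differences compare the media as made. Single libraries stood apart in other treatments too. Leu_1, Arg_4 and POS_4 had 10495, 11838 and 13537 genes with a read, against 15211 or more in the remaining 69 libraries, and Trp_1 had 62289 FPKM of ENSBTAG00000054661 against 1820 to 6451 in the other Trp libraries. The order of the treatments without Arg_4 or Trp_1 was not tested. With all 6 Val libraries, the fewest genes differed from His, 315 (2.60%), and from Trp, 383 (3.16%). Ile followed with 819 genes (6.76%), Leu with 905 (7.47%), Met with 1620 (13.4%), Lys with 2151 (17.7%) and Arg with 2553 (21.1%). Phe and Thr differed from Val most, with 6383 (52.7%) and 7211 genes (59.5%). In the same fit 7224 genes differed between Val and NEG. Counted as DEG, the fewest were for Trp, 96, then His, 128, Met, 133, Leu, 141, and Ile, 264.

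Without Val_3 the counts rose for every EAA but Leu. They were 778 for His (6.42%), 2286 for Trp (18.9%), 2802 for Ile (23.1%), 817 for Leu (6.74%), 2886 for Met (23.8%), 4628 for Lys (38.2%), 4183 for Arg (34.5%), 7488 for Phe (61.8%) and 8037 for Thr (66.3%). By adjusted p His and Leu were then the nearest. Counted as DEG it was Leu with 141, before His with 258 and Trp with 272. The order of the treatments thus depended on the call and on Val_3. The removal of Val_3 raised the counts by adjusted p for Trp and Ile more than 3-fold, and Lys then stood above Arg.

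**Figure D4:**
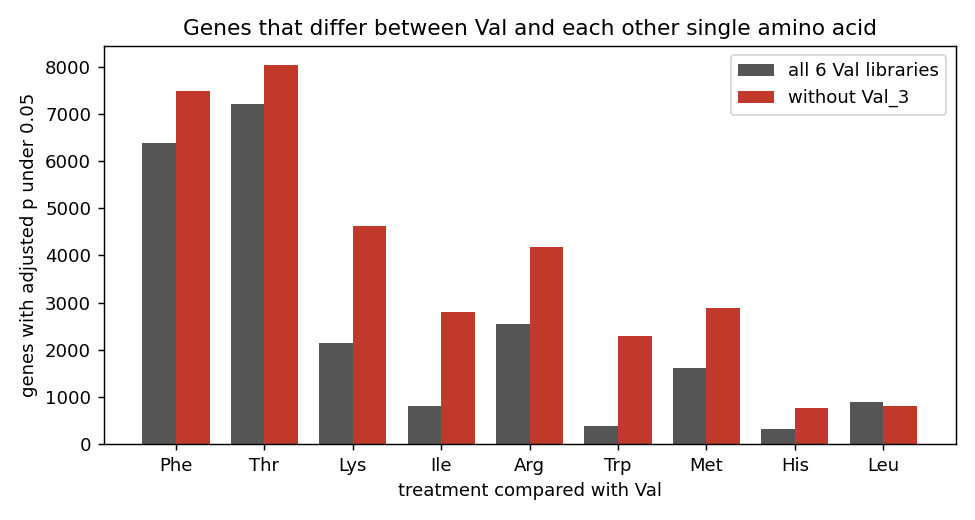
Number of genes with an adjusted p under 0.05 (y axis, limma, 12121 genes tested) between Val and each other single EAA (x axis), with all 6 Val libraries (grey bars) and without Val_3 (red bars). Without Val_3 the bars are higher for 8 of the 9 EAA, and for Leu the count is 817 against 905.

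Leucine and isoleucine are the other branched-chain amino acids. Leucine carries 1 more methylene group in its side chain than valine, and so does isoleucine, with the branch next to the alpha carbon as in valine. At the matched concentration of 0.45 mmol/L, 905 genes differed between Val and Leu, 518 higher and 387 lower with valine, and 450 and 367 without Val_3. Leu_1 stood apart from its group, with 12006111 reads on genes and 10495 genes with a read against 15747 or more in the other Leu libraries. Without Leu_1 the balance turned to 423 higher and 492 lower. DEG by size were fewer, 127 higher and 14 lower with valine, or 113 and 28 without Val_3. Ile was given at 0.42 mmol/L, and with that difference in dose 314 genes were higher and 505 lower with valine than with Ile. This balance turned with the scaling, to 503 higher and 234 lower with equal sums of FPKM and 487 and 316 with total reads. With 1 library left out, the total ran from 355 without Val_4 to 2802 without Val_3. These counts rest on a spread shared by all 12 treatments. A fit of the Val and Leu libraries alone called 39 genes, and one of Val and Ile alone called 664. With sample weights of limma in the fit of 12 treatments the counts were 5207 for Leu and 8466 for Ile.

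A gene was taken as changed by valine beyond the other nine if Val differed from NEG and from each of the other 9 single EAA in the same direction, each with an adjusted p under 0.05 in the fit of 12 treatments. This held for 18 genes (0.149%), 5 higher and 13 lower with valine. The balance turned to 12 higher and 2 lower with equal sums of FPKM, to 8 and 5 with total reads, and to 12 and 7 with no filter on FPKM. Without Val_3 it held for 96 genes (0.792%), 41 higher and 55 lower, and 4 of the 5 higher and all 13 lower were among them. The set depended on single libraries. It numbered 16 genes without Val_1, 6 without Val_2, 1 without Val_4, 1 without Val_5 and 4 without Val_6. Separate fits of each pair of treatments left 1 gene, while sample weights of limma gave 1950. On the log2 scale Val lay 0.35 to 1.14 above the nearest single EAA for the higher genes and 0.18 to 0.44 below it for the lower. The nearest single EAA was Leu for 6 of the 18 genes and Phe for 5, and without Val_3 it was Trp for 30 of the 96 and Leu for 22.

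The 2 higher and 2 lower genes that stood farthest from the nearest other EAA are named, chosen after their values were seen. ENSBTAG00000046120 (276 bp) had 8.06 to 23.9 FPKM in Val (median 14.4) with 14.3 in Val_3, against 2.98 to 6.12 in NEG (median 4.96). Val and NEG did not overlap, and Val_3 was in the middle of its group. In Phe, the nearest single EAA, it had 4.30 to 9.13 FPKM, and Val minus Phe was 1.14 ± 0.35 (SE; limma, adjusted p = 0.00603), with 0.024 as the largest adjusted p of the 10 comparisons. POS was nearer, with a difference of 0.87 ± 0.35 (SE; limma, adjusted p = 0.039). Met_1 at 17.7 FPKM and POS_4 at 15.4 FPKM were single libraries of other treatments within the upper part of the Val range. The gene had 35 to 111 reads in Val. The largest adjusted p rose to 0.070 without Val_4, 0.066 without Val_5, 0.11 without Val_6 and 0.10 with a pseudocount of 0.1 (limma).

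ENSBTAG00000047029 (432 bp) had 40.5 to 71.8 FPKM in 5 Val libraries (median 57.7) and 112 in Val_3. NEG ranged from 30.3 to 69.3 FPKM (median 35.3), where NEG_2 was the highest, so the groups overlapped. The highest level of all was 126 FPKM in POS_1, and Met_1 and Ile_1 stood at 77.8 and 76.4 FPKM. Val minus Leu, the nearest EAA, was 0.93 ± 0.30 (SE; limma, adjusted p = 0.039), and 0.76 ± 0.30 without Val_3 (limma, adjusted p = 0.13). The call was also lost without Val_4, Val_5 or Val_6, without any NEG library but NEG_2, with no filter on FPKM and in separate fits of pairs, with a largest adjusted p of 0.051 to 0.15 (limma).

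ENSBTAG00000002021 (1732 bp) had 3.08 to 4.83 FPKM in 5 Val libraries (median 3.95) and 5.25 in Val_3, against 5.04 to 7.40 in NEG (median 6.43). Val_3 alone reached the NEG range. Val minus Thr, the nearest EAA, was -0.44 ± 0.16 (SE; limma), and the largest adjusted p of the 10 comparisons was 0.047, or 0.014 without Val_3. That p was 0.11 without Val_2, 0.16 without Val_4, 0.11 without Val_5 and 0.077 without Val_6. With equal sums of FPKM the difference was -0.23 with a largest adjusted p of 0.19, and in separate fits of pairs that p was 0.44 (limma). The call was also lost with total reads (0.071), voom (0.075), no filter on FPKM (0.076) and a pseudocount of 0.1 (0.052). Without NEG_4 or NEG_5 it was lost narrowly (limma, largest adjusted p of 0.0504 and 0.0506). Leu_1 at 2.20 FPKM was lower than any Val library.

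ENSBTAG00000006538 (1512 bp) had 9.22 to 10.7 FPKM in 5 Val libraries (median 10.3), 15.0 in Val_3, and 15.7 to 25.2 in NEG (median 20.05). All Val libraries lay below all NEG libraries, by a wide gap for all but Val_3. Val minus NEG was -0.83 ± 0.13 (SE; limma, adjusted p = 0.000555). Val minus Leu, the nearest EAA, was -0.43 ± 0.13 (SE; limma, adjusted p = 0.034), and -0.52 ± 0.14 without Val_3 (limma, adjusted p = 0.011). Without any 1 of the other 5 Val libraries the call was lost, with a largest adjusted p of 0.059 to 0.11, as it was with equal sums of FPKM (0.076), total reads (0.066) and separate fits of pairs (0.43). Leu_1 at 8.19 FPKM was again lower than any Val library, while the median of Leu was 16.8 FPKM.

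**Figure D5:**
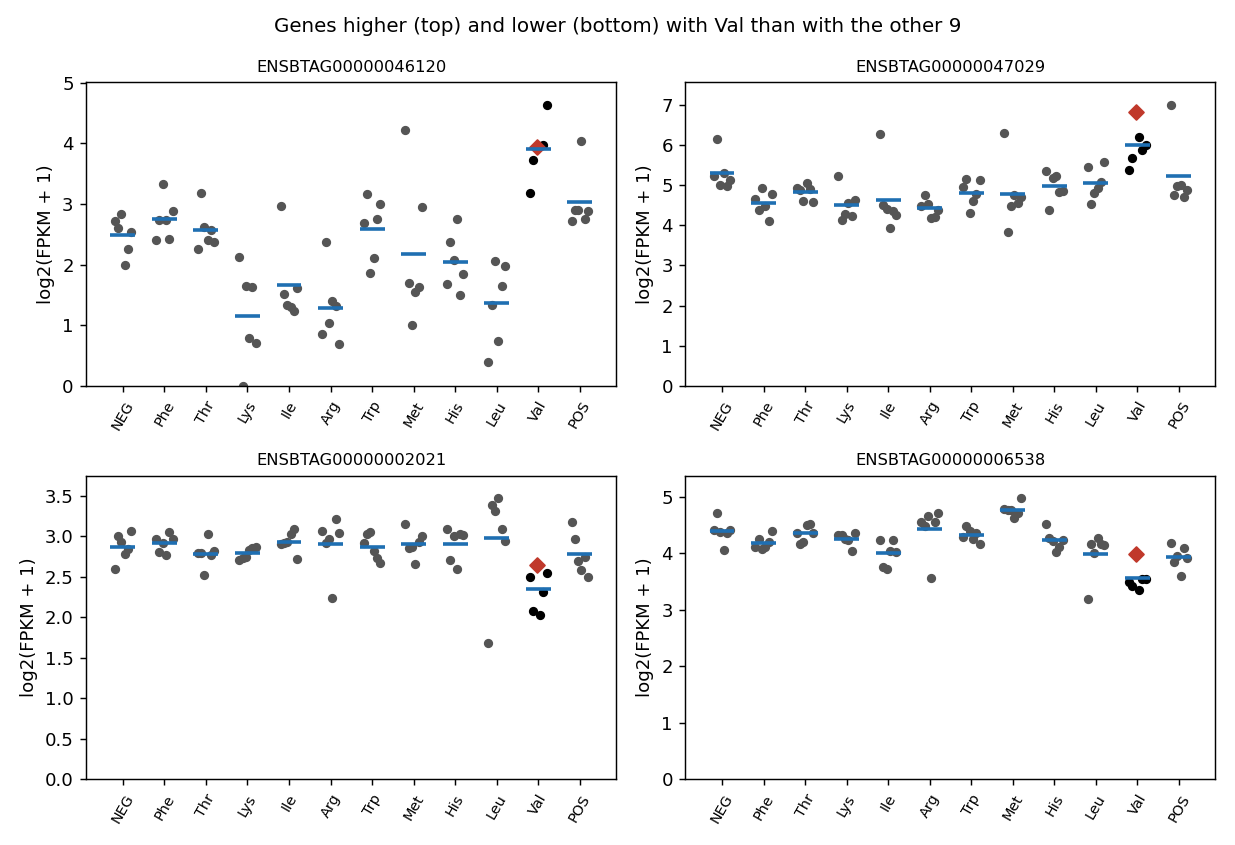
Level in log2(FPKM + 1) (y axis) of 2 genes higher and 2 genes lower with valine than with NEG and each of the other 9 single EAA, in every library of the 12 treatments (x axis), with group means as blue lines. Val libraries are black with Val_3 as a red diamond, and single libraries such as POS_1 for ENSBTAG00000047029 (126 FPKM) and Leu_1 for ENSBTAG00000006538 (8.19 FPKM) reach or pass the Val range.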

How the data were processed

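RNA sequencing of 72 BMEC libraries was deposited by the authors as 1 table of FPKM. Per the submitters' processing notes, HISAT2 (2.0.5), StringTie (1.3.3b), featureCounts (1.5.0-p3) and DESeq2 (1.20.0) were used. Their genome build was not given in the sources used here. Library kits and culture plates, which all libraries share, are named differently in the paper and the labels. Whole reads were recovered from the FPKM steps, to within 0.001 read for 100.0% of values above 0. Where reads are few, the length and the reads of a gene are known only up to a common divisor. Reads may be PCR copies, so intervals on them cover counting error only.

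Groups came from the labels. Tests used limma (3.58.1, R 4.3.3) on log2(FPKM + 1) with its prior variance trended on level, on Val and NEG alone for that comparison and on all 12 treatments for the rest, with Benjamini-Hochberg adjustment over the 12121 genes. Exact permutation tests used scipy (1.17.1). Limma was also run on simulated data as a check of the code, with no result given here. Alternatives were a pseudocount of 0.1, no filter on FPKM, other scalings, a replicate block, sample weights, voom on the reads, and each library left out. Scaling by total reads, the length trend, the limit of 200 bp and the joint removal of Val_3 and NEG_2 were added after the data were seen.

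The members, lists and named-gene rule were chosen with earlier results of these data known. The rule took the largest rises and falls with an adjusted p under 0.05 with and without Val_3 and with the 5 other Val libraries outside the NEG range. Of the identifiers, 0 were found among 37063 rows of the reference table, so gene lists and cell type markers were not run.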

Additional observations from a re-analysis of the deposited data

Results flagged for a closer look

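In 10 of 26 groups of 6 libraries or values, the highest library lay farther from its neighbour, relative to the range of the group, than Dixon's 95% critical value for 6 samples. Chance gives about 1 in 20 among independent groups. These groups overlap, Val_3 was known to stand apart, and the rule for named genes left it out, so the count is a description. Of the 10, 6 were from Val_3 and 4 from NEG_2. Among the Val libraries, Val_3 was apart by its 18379953 reads on genes, its 18393 genes with a read, and its RMS difference of 0.77 from the mean of the other Val libraries. It was also the highest Val library for ENSBTAG00000054661 at 23006 FPKM, for ENSBTAG00000054257 at 29.9 FPKM and for ENSBTAG00000006538 at 15.0 FPKM. Among the NEG libraries, NEG_2 was apart by the 28.3% of its reads on the 100 genes with the most reads and by its RMS difference of 0.62 from the mean of the other NEG libraries. NEG_2 was also the highest control for ENSBTAG00000042180 at 6.73 FPKM and for ENSBTAG00000047029 at 69.3 FPKM.

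Val differed from NEG and, in the same direction, from each of the other 9 single EAA for 18 genes, by the contrasts between treatments in limma. Without Val_3 it did so for 96 genes, and separate fits of pairs left 1.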

How the results depend on the processing

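Leaving out 1 library at a time gave 1231 to 2186 DEG between Val and NEG, 6560 to 8662 genes by adjusted p, 1 to 96 genes beyond the other nine, 661 to 1116 genes between Val and Leu, and 355 to 2802 between Val and Ile. Against 1425 DEG with all libraries, the removal of Val_3 gave 2186. For Ile, with 819 genes in all, 465 were left without Val_2, 355 without Val_4, 360 without Val_5, 373 without Val_6, 448 without Ile_2, 522 without Ile_3, 442 without Ile_4 and 491 without Ile_5. Sample weights of limma raised the genes beyond the other nine from 18 to 1950, those for Leu from 905 to 5207 and those for Ile to 8466. Separate fits of each pair gave 1 gene beyond the other nine and 39 for Leu, and 664 for Ile. Requiring a difference from NEG and, in the same direction, from the mean of the other 9 treatments in place of each of them gave 2818 genes, and a fold limit on the adjusted p gave 1411 for Val against NEG. The causes were not tested. Voom of limma on the recovered reads called 2121 DEG and 7394 genes by adjusted p. By adjusted p, 5073 genes were higher and 2492 lower with equal sums of FPKM, 3937 and 3576 with total reads, and 3970 and 3770 with the length trend removed, against 3062 and 4383 as deposited. For the genes beyond the other nine the splits were 12 higher and 2 lower with equal sums, 8 and 5 with total reads, and 12 and 7 with no filter on FPKM. For Leu they were 671 and 187 with equal sums, 731 and 230 with total reads, and 423 and 492 without Leu_1. For Ile they were 503 and 234 with equal sums and 487 and 316 with total reads. The 4 genes with the largest changes kept an adjusted p under 0.05 under each of 22 alternatives. They were chosen by that limit with and without Val_3, so this count was largely set by the choice. Of the genes named beyond the other nine, ENSBTAG00000046120 kept it under 16 of 20 alternatives. ENSBTAG00000006538 kept it under 10, ENSBTAG00000047029 under 9 and ENSBTAG00000002021 under 8. None of these 8 genes changed direction. Planned counts over gene lists were not run, since no identifier was paired with a name.

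With the replicate number as a block there were 1429 DEG, 7048 genes by adjusted p, 22 genes beyond the other nine, 978 for Leu and 954 for Ile. The numbers were not taken to pair the libraries, since not every pair passed r of 0.1 in any of these comparisons. The deviations of same-numbered Val and NEG libraries from their group means correlated with r of -0.15 to 0.0999, no pair of the 6 passed 0.1, and 1 of 6 Val libraries correlated best with its own number. For Val and Leu r was -0.28 to 0.45 with 1 pair over 0.1, and for Val and Ile -0.20 to 0.49 with 2, and in each 1 of 6 Val libraries correlated best with its own number.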

Other observations

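Val and the complete medium were compared directly in the fit of 12 treatments. By adjusted p in limma, 4980 genes differed, 2399 higher and 2581 lower with valine, and 5639 differed without Val_3. POS_4 stood apart from its group, with 13537 genes with a read, and the counts without it were not tested. For ENSBTAG00000054661 Val minus POS was -1.71 ± 0.69 (SE; limma, adjusted p = 0.040). The 5 Val libraries other than Val_3 were 0.64 to 0.73 from the mean of POS, and Val_3 was 0.68 from it.

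Val had the highest mean level of the 10 single EAA for 1419 of the 12121 genes and the lowest for 1516, and without Val_3 for 2248 and 2504. These counts were not particular to Val. Thr had the highest mean for 3810 genes and the lowest for 2636, and Leu for 2343 and 3829. Without Val_3 they were 3817 and 2632 for Thr and 1752 and 3100 for Leu. Among the 462 tested genes with running names in place of identifiers, 19 (4.11%) were DEG higher with valine and 21 (4.55%) lower, against 2.20% and 9.55% of all genes tested. Without Val_3 they were 38 (8.23%) and 33 (7.14%), against 4.08% and 13.96% of all genes tested.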
